A study of Mus musculus with 14 samples.

Results

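Genes of folate uptake and use are described here in mouse hepatoblasts: Folr1, the folate receptor alpha, Slc19a1, the reduced folate carrier, and the enzymes Tyms, Shmt1 and Mthfd1. They are 5 of the 12393 genes measured on the arrays. The genes were chosen by name, with earlier results of these data known, and each is represented by the probe set of its own symbol with the highest mean over the 14 arrays. A probe set is a group of short oligonucleotides whose signals are summarised into 1 intensity. Folr1 had been named in those earlier results for its plate response. Its plate differences are therefore given as a description, without a test, while the other 4 genes were tested within the fit over all genes.

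Folate carries single carbon units for the synthesis of purines and thymidylate and for the methylation of homocysteine to methionine. Folr1 sits on a lipid anchor at the cell surface, binds folate tightly and brings it in by endocytosis, and Slc19a1 transports reduced folates through the membrane in exchange for anions. In the cytosol Shmt1 moves a carbon between serine and tetrahydrofolate, Mthfd1 is the trifunctional enzyme that interconverts the methylene, methenyl and formyl forms, and Tyms uses methylene-tetrahydrofolate to make thymidylate for DNA. In the mouse genome (RefSeq, GRCm38.p6) Folr1 lies at chr7:101858331-101870788, Slc19a1 at chr10:77032269-77050432, Shmt1 at chr11:60788897-60811265, Mthfd1 at chr12:76254406-76319820 and Tyms at chr5:30038546-30073645. The liver is a main store of folate in the body and a main site of its metabolism.

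The groups were hepatoblasts, the fetal liver progenitors of hepatocytes and bile duct cells, with 2 cultures each. On uncoated plates they carried IDH1 R132C or empty vector. On collagen they carried IDH2 R172K, wild-type IDH2, IDH1 R132C, wild-type IDH1 or empty vector. All came from wild-type mouse embryos at day 14 and had been immortalised by sparse plating, and the sources used here do not say whether a line is 1 clone. Transgenes were driven by a doxycycline-inducible system, 25 ng/mL doxycycline was in the medium of the IDH1 experiments, and whether the vector or IDH2 cultures received it is not given in the sources used here. Uncoated plates, used for up to 5 days, served as the hepatocyte differentiation setting. IDH1 and IDH2 are isocitrate dehydrogenases of cytosol and mitochondria, and the R132C and R172K mutants are known to make 2-hydroxyglutarate.

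Array medians were 134.5 to 147.7 intensity units, and replicates correlated at r = 0.994 to 0.998 across genes. Lower quartiles by array were log2 4.72 to 4.80, and a value at or under the highest of them is called near background here. Among hepatoblast markers, the transcription factor Hnf4a lay at log2 10.85 to 11.74, the keratin Krt8 at 14.15 to 14.35 and the fetal serum protein Afp at 9.09 to 11.63, while the hepatocyte serum protein albumin (Alb) was near background on 12 of 14 arrays and the progenitor marker Dlk1 lay at 5.14 to 5.59. Of 5 endothelial markers, Pecam1, Tek and Stab2 were near background on all 14 arrays and Cdh5 on 13, while Kdr lay at 5.59 to 6.32. Of 7 mesenchymal and stellate markers, Vim was bright at 13.77 to 14.15, Des lay at 5.81 to 6.17 and Acta2 at 5.15 to 6.15. Col3a1 was near background on all 14 arrays, Pdgfrb on 6, and Col1a1 and Col1a2 on 1 each. Of 7 leukocyte and macrophage markers, the pan-leukocyte Ptprc alone was called between plates. It lay at 3.73 to 6.45, near background on 9 of 14 arrays, and was higher on uncoated plates in R132C cells (log2 difference 1.19, adjusted p = 0.00727) and in vector cells (1.73, adjusted p = 0.000465), by limma with Benjamini-Hochberg adjustment. With 2 arrays a group, their number limits the precision of every value.

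Folr1 was high in a single setting, vector cells on uncoated plates. Its level was log2 5.69 and 6.33 in IDH1 R132C cells on uncoated plates, against 10.11 and 9.78 in vector cells on uncoated plates. On collagen the 10 arrays lay between 4.56 and 4.99, with a median of 4.74, and 7 of them were near background. The uncoated arrays did not overlap the collagen arrays in either kind of cell, and the R132C arrays on uncoated plates stood between the vector arrays on those plates and all arrays on collagen. In order of mean level the groups ran from vector on uncoated plates (9.95 ± 0.23, SD, n = 2) through R132C on uncoated plates (6.01 ± 0.45) to the collagen groups (4.65 to 4.80), whose ranges overlapped each neighbour in the order.

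RNA came from whole cultures, so fewer expressing cells and less transcript per cell cannot be told apart. The plate difference of Folr1, uncoated minus collagen, was log2 1.26 in R132C cells (SE 0.20, 2.40-fold) and 5.22 in vector cells (SE 0.20, 37.3-fold). The difference between these plate differences was -3.96 (SE 0.29), and on uncoated plates R132C cells lay 3.94 (SE 0.20) below vector cells on the log2 scale, a 15.3-fold lower intensity. These values share the uncoated arrays. Since the collagen arrays sat at the background of the array, the folds over collagen describe the intensity and not a ratio of transcript numbers. Leaving out 1 array at a time, the difference between plate differences ran from -4.27 without R132C uncoated replicate 2 to -3.64 without R132C uncoated replicate 1. Over all genes, 0.25% were called for the difference between plate differences and 2.39% for R132C against vector on uncoated plates. These shares are background only, since Folr1 was chosen with its plate response known.

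**Figure D1:**
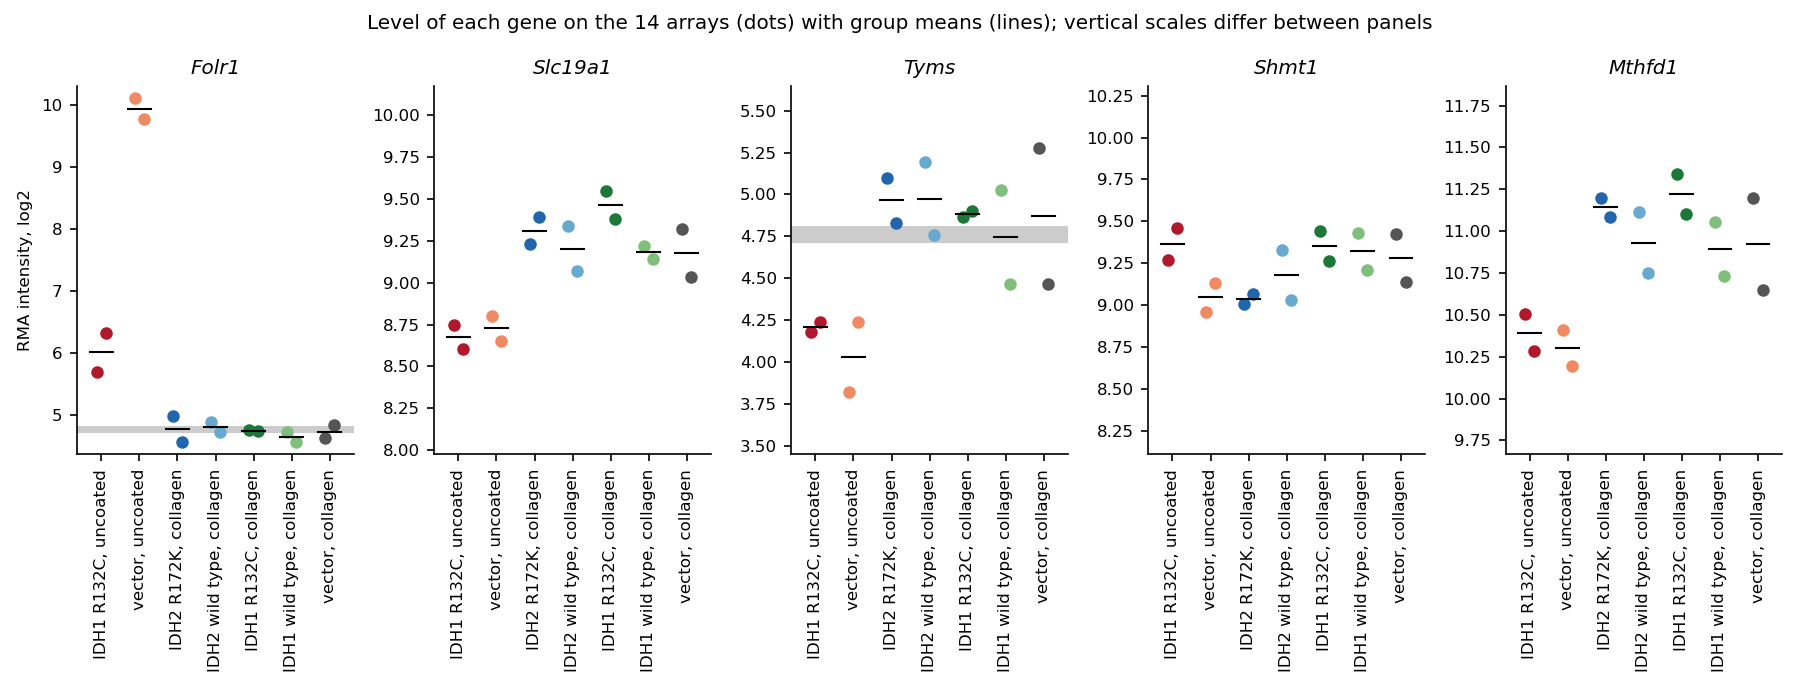
Level of the 5 genes as log2 of RMA intensity on each of the 14 arrays (dots), with the mean of each of the 7 groups (black lines); the grey band is the range of the arrays' lower quartiles, 4.72 to 4.80, and the vertical scales differ. Folr1 stands out in vector cells on uncoated plates, Slc19a1, Tyms and Mthfd1 are lower on all 4 uncoated arrays than on all 10 collagen arrays, and Shmt1 overlaps between plates.

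Some markers of liver cells moved with the plates beside Folr1. Of 9 hepatoblast and hepatocyte markers measured, 2 rose, 1 fell and 6 were not called in each kind of cell. Those 6 were Hnf4a, Foxa2, Alb, Dlk1, Krt8 and Krt18. Over all genes, 13.6% rose and 12.3% fell in R132C cells, and 15.1% rose and 14.2% fell in vector cells. Ttr, the hepatocyte serum protein transthyretin, rose on uncoated plates by 1.15 in R132C cells and by 3.06 in vector cells, with a difference between plate differences of -1.91 (limma adjusted p = 0.000808). The hepatocyte transcription factor Cebpa rose by 1.95 in R132C cells and by 2.73 in vector cells, and Afp fell by 0.83 in R132C cells and by 1.39 in vector cells. Of 4 biliary markers measured, Sox9 rose by 1.98 in R132C cells and by 2.02 in vector cells, and Epcam by 1.08 in R132C cells and by 1.83 in vector cells. The keratin Krt7 fell by 0.55 in R132C cells and by 0.84 in vector cells, and Krt19 (-0.28) fell in vector cells. Of 7 mesenchymal and stellate markers, the collagen Col1a1, dim at log2 4.56 to 5.75, alone was called in vector cells (-0.53). None of the 7 was called between plates in R132C cells. On uncoated plates R132C cells differed from vector cells by -1.73 for Ttr, -1.49 for Epcam and 1.45 for Afp, all called. The part of these shifts in the Folr1 signal was not tested.

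Kidney proximal tubule and choroid plexus are tissues known for Folr1. Of 7 of their markers other than Folr1, the endocytic receptor Lrp2, Kl, Otx2 and Slc4a5 were near background on all 14 arrays. Slc34a1 was near background on 7 arrays, and Slc5a2 lay above it on all arrays, at log2 5.44 to 5.82. The summed intensity of the 7 markers was 163 to 186 on uncoated arrays and 204 to 256 on collagen arrays. Cubn, the intrinsic factor receptor, fell on uncoated plates in R132C cells (log2 difference -1.13, adjusted p = 9.17e-05) and in vector cells (-1.09, adjusted p = 5.33e-05). Folr2, the folate receptor known from macrophages, lay at 4.87 to 5.27 on all arrays, and its plate difference was -0.06 in R132C cells (adjusted p = 0.833) and 0.15 in vector cells (adjusted p = 0.503). Leukocyte and macrophage markers, 7 genes with Folr2 among them, summed to 857 to 1326 intensity units on uncoated arrays and 710 to 1227 on collagen arrays, which overlap. That sum mainly follows Cd14, at log2 8.79 to 9.99, since the next brightest, Cd68, reached 7.27 at most. It says little of dimmer markers such as Ptprc. The part of these cells in the Folr1 signal was not tested.

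The genes whose pattern over the 14 arrays was most like that of Folr1, among 1472 genes with a range of group means of at least 1 on the log2 scale, were Cyp4f14, a fatty acid hydroxylase of the cytochrome P450 family (Pearson r = 0.992), Muc13, a membrane mucin (r = 0.991), and Sult1a1, a phenol sulfotransferase (r = 0.990). Muc13 averaged 5.93 in R132C cells and 7.80 in vector cells on uncoated plates, against 5.59 and 5.54 in the same cells on collagen. Cyp4f14 averaged 4.95 in R132C cells and 7.12 in vector cells on uncoated plates. Sult1a1 averaged 4.73 in R132C cells and 6.46 in vector cells on uncoated plates. On collagen Cyp4f14 averaged 3.94 in R132C cells and 3.99 in vector cells, and Sult1a1 averaged 4.26 and 4.12, all near background. The arrays share their cells and plates, and these correlations are descriptions.

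**Figure D2:**
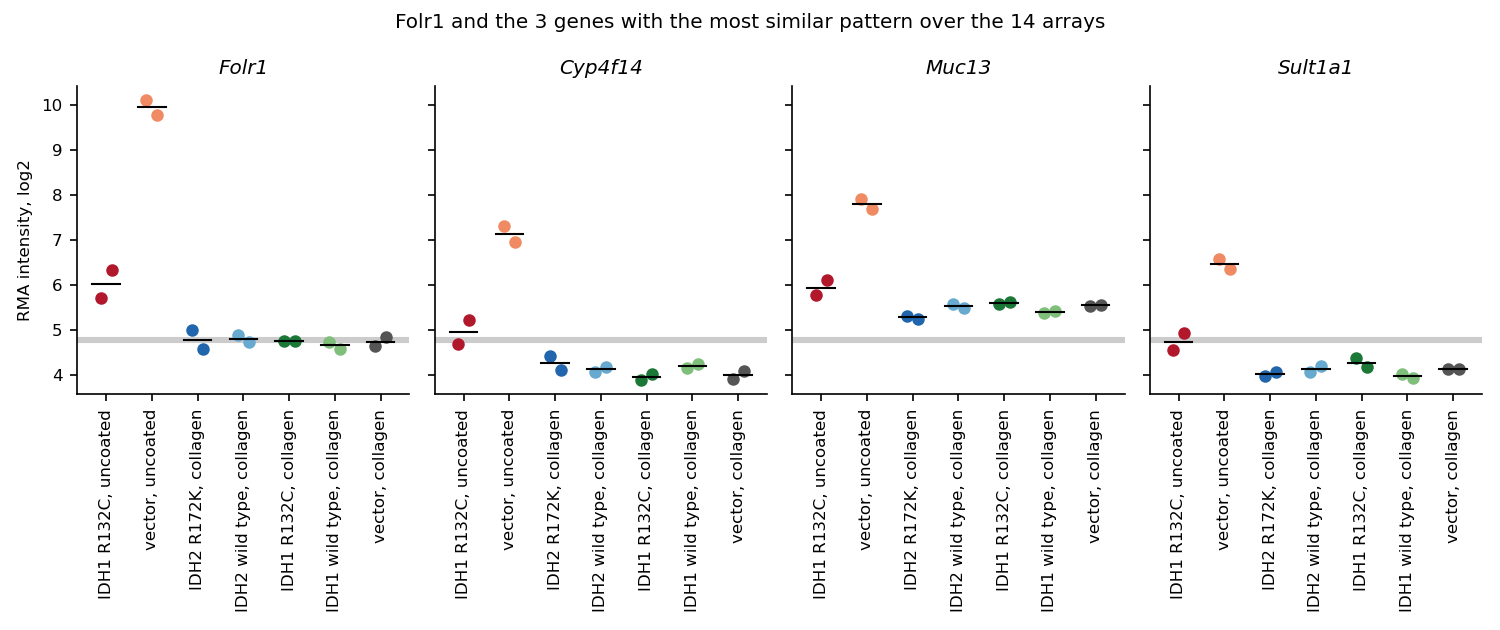
Log2 of RMA intensity of Folr1 and of the 3 genes most like it on the 14 arrays (dots) with group means (lines) and the band of lower quartiles in grey. In each panel vector cells on uncoated plates stand highest and R132C cells on uncoated plates lie next.

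Slc19a1, the carrier that supplies reduced folate to most cells, moved the other way. Its level on uncoated plates was log2 8.75 and 8.60 in R132C cells, and in R132C cells on collagen it was 9.55 and 9.38. In vector cells it was 8.80 and 8.65 on uncoated plates and 9.32 and 9.03 on collagen. All 4 uncoated arrays lay below all 10 collagen arrays, which ran from 9.03 to 9.55 with a median of 9.28. Slc19a1 fell on uncoated plates by 0.79 on the log2 scale in R132C cells (SE 0.13, 1.73-fold, limma adjusted p = 0.000854 over all genes) and by 0.45 in vector cells (SE 0.13, 1.37-fold, limma adjusted p = 0.0199). Over all genes, 12.3% were called lower on uncoated plates and 13.6% higher in R132C cells, and 14.2% lower and 15.1% higher in vector cells. The fall in vector cells was no longer called without vector collagen replicate 1 (-0.30, adjusted p = 0.203) or vector uncoated replicate 2 (-0.37, adjusted p = 0.131), while the fall in R132C cells was called with any 1 array left out.

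Mthfd1, which interconverts methylene-, methenyl- and formyl-tetrahydrofolate in the cytosol, also fell on uncoated plates. It stood at log2 10.50 and 10.28 in R132C cells on uncoated plates, against 11.34 and 11.10 in R132C cells on collagen. Vector cells stood at 10.41 and 10.19 on uncoated plates and 11.20 and 10.65 on collagen. No uncoated array overlapped the collagen range of 10.65 to 11.34. The fall was 0.83 on the log2 scale in R132C cells (SE 0.18, 1.78-fold, limma adjusted p = 0.00462), and in vector cells Mthfd1 fell by 0.62 (SE 0.18, 1.54-fold, limma adjusted p = 0.0192).

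Single arrays decided some of these Mthfd1 calls. In R132C cells the difference was -0.71 without R132C collagen replicate 1 (adjusted p = 0.0558) and -0.72 without R132C uncoated replicate 2 (adjusted p = 0.0537). The difference in vector cells was -0.35 without vector collagen replicate 1 (adjusted p = 0.233) and -0.52 without vector uncoated replicate 2 (adjusted p = 0.131). Mthfd1 was higher in replicate 1 than in replicate 2 in all 7 groups, a gap that was widest in vector cells on collagen.

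Tyms, the enzyme that commits folate to DNA synthesis, gave a bright signal only on a probe set that the platform annotation assigns to both Tyms and its pseudogene Tyms-ps. On the set of Tyms alone with the highest mean the level was log2 4.18 and 4.24 in R132C cells and 3.82 and 4.24 in vector cells on uncoated plates, against 4.86 and 4.90 in R132C cells and 5.28 and 4.47 in vector cells on collagen. All 4 uncoated arrays and 3 of the 10 collagen arrays were thus near background. On this set the plate difference was -0.68 in R132C cells (SE 0.25, limma adjusted p = 0.0699), and Tyms fell by 0.84 in vector cells (SE 0.25, limma adjusted p = 0.0237). The call in vector cells was lost without vector collagen replicate 1 (-0.44, adjusted p = 0.284) or vector uncoated replicate 1 (-0.63, adjusted p = 0.197).

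The shared probe set read log2 10.06 and 9.67 in R132C cells on uncoated plates, against 10.46 and 10.41 in R132C cells on collagen. Vector cells read 9.56 and 9.48 on uncoated plates and 10.56 and 10.16 on collagen. Neither pair of plates overlapped, though IDH2 R172K cells on collagen, at 9.98 on both arrays, lay within the uncoated range. In a fit of every probe set by itself its signal fell by 0.57 in R132C cells (SE 0.15, limma adjusted p = 0.0156) and by 0.84 in vector cells (SE 0.15, limma adjusted p = 0.00128). In that fit, 11.4% of 22626 probe sets were called lower on uncoated plates in R132C cells and 13.1% in vector cells. In R132C cells the value was -0.38 without R132C uncoated replicate 2 (adjusted p = 0.183), -0.54 without R132C collagen replicate 1 (adjusted p = 0.0979) and -0.60 without R132C collagen replicate 2 (adjusted p = 0.0628), and in vector cells it was called with any 1 array left out. The probe set of Tyms-ps alone lay at 3.13 to 3.61 on all 14 arrays. Tyms lies on chromosome 5 and Tyms-ps on chromosome 10, and how the shared signal divides between them was not tested.

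Shmt1, which loads tetrahydrofolate with the carbon of serine, differed little between plates. It was at log2 9.27 and 9.46 in R132C cells on uncoated plates, against 9.44 and 9.27 in R132C cells on collagen. In vector cells it was at 8.96 and 9.13 on uncoated plates and 9.43 and 9.14 on collagen. The plates overlapped in R132C cells and did not in vector cells, where the gap between the nearest arrays was smaller than that between replicates. The plate difference was 0.01 in R132C cells (95% interval -0.29 to 0.31, limma adjusted p = 0.966) and -0.24 in vector cells (95% interval -0.54 to 0.06, limma adjusted p = 0.247). The highest group mean was that of R132C cells on uncoated plates (9.37) and the lowest that of R172K cells on collagen (9.04), and each group in the order overlapped the next.

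Other probe sets of the same genes gave a check. Slc19a1 has 3 of its own symbol. On the second brightest the difference was -0.76 in R132C cells (adjusted p = 0.00184) and -0.39 in vector cells (adjusted p = 0.0564), and on the dimmest it was -0.18 and -0.14 in these cells, neither called. Of the 3 sets of Mthfd1, the second brightest gave -0.72 in R132C cells and -0.52 in vector cells (adjusted p = 0.00506 and 0.026), and the dimmest gave -0.41 in R132C cells (adjusted p = 0.122) and -0.57 in vector cells (adjusted p = 0.0314). Without vector collagen replicate 1 these 2 sets gave -0.31 and -0.30 in vector cells (adjusted p = 0.272 and 0.335), and the calls there were also lost without either vector uncoated array (adjusted p = 0.0811 to 0.159). The second brightest set was not called in R132C cells without R132C collagen replicate 1 (adjusted p = 0.0609) or R132C uncoated replicate 2 (adjusted p = 0.0533). The 4 sets of Shmt1 gave -0.12 to 0.34 in R132C cells and -0.35 to 0.00 in vector cells, none of them called. The other 2 sets of Tyms were near background on all 14 arrays.

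**Figure D3:**
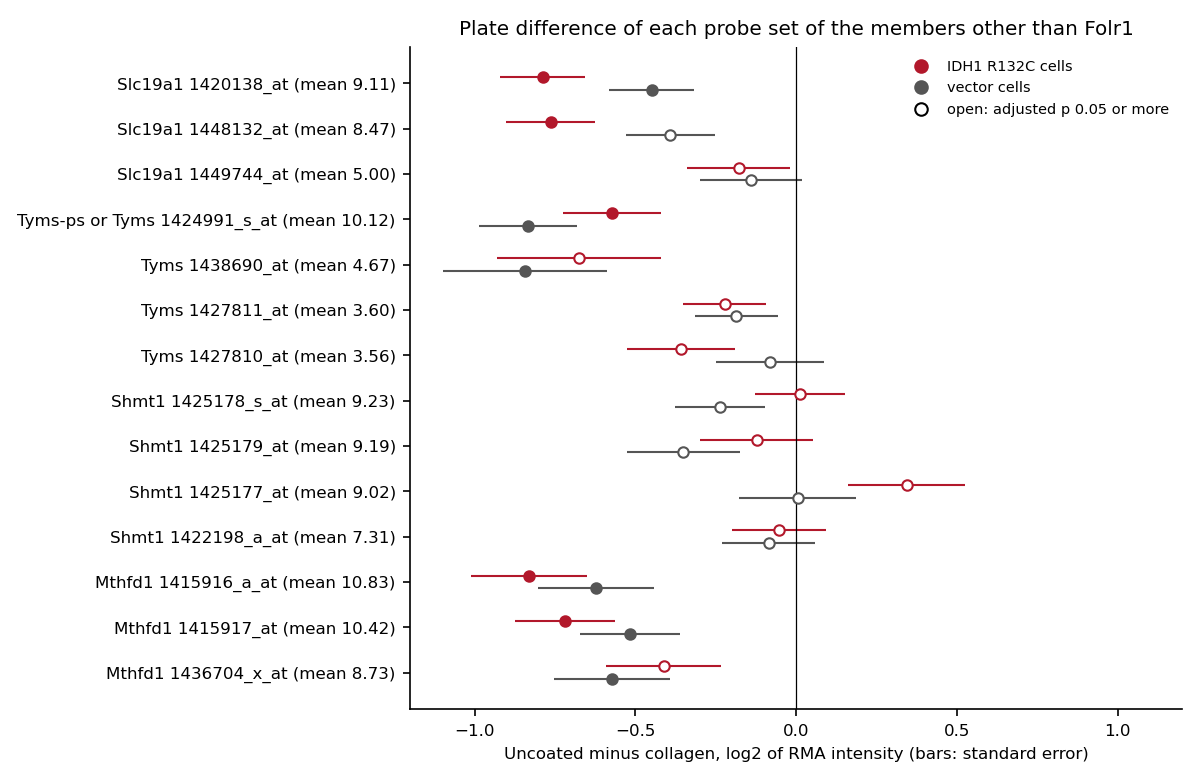
Plate difference, uncoated minus collagen, on the log2 scale for each probe set of Slc19a1, Tyms, Shmt1 and Mthfd1 (points, bars are standard errors), with IDH1 R132C cells in red above vector cells in grey and the mean level over the 14 arrays in brackets. Open points had an adjusted p of 0.05 or more; every point of Slc19a1, Tyms and Mthfd1 lies below 0, and the Shmt1 points lie on both sides.

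None of the 4 tested genes had a plate difference that was called different between R132C and vector cells. The difference between plate differences, R132C minus vector, was -0.34 for Slc19a1 (95% interval -0.74 to 0.06), -0.21 for Mthfd1 (-0.76 to 0.35), 0.17 for Tyms (-0.61 to 0.95) and 0.25 for Shmt1 (-0.18 to 0.68), all with a limma adjusted p above 0.99. On uncoated plates R132C cells differed from vector cells by -0.05 for Slc19a1 (adjusted p = 0.947), 0.09 for Mthfd1 (0.927), 0.18 for Tyms (0.886) and 0.32 for Shmt1 (95% interval 0.02 to 0.62, adjusted p = 0.327). The intervals are wide, and a p that misses the threshold does not show that the levels were alike.

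Across the 14 arrays Slc19a1 and Mthfd1 followed each other (Pearson r = 0.963), Tyms followed Mthfd1 at r = 0.883 and Slc19a1 at 0.815, and Shmt1 correlated with these 3 at 0.18 to 0.33. Folr1 correlated with the other 4 at -0.73 to -0.36. These are descriptions over 14 arrays that share their plates and cultures. For Tyms they use the set of Tyms alone, near background on 7 of the 14 arrays, all uncoated arrays among them. No correlation was computed for the shared Tyms set. Folr1 was near background on 7 of the 14 arrays, all of them on collagen. By the same measure over 1473 genes, the genes most like Mthfd1 were Wdr4 (r = 0.969), a subunit of a tRNA methyltransferase, Tcof1, which acts in ribosomal RNA synthesis, and Srm, the spermidine synthase. Those most like Slc19a1 were the cell cycle transcription factor Mybl2 (r = 0.969), the ribosome biogenesis factor Bysl and the phosphatase Dusp14. Those most like Tyms were Mdn1 (r = 0.937) and Donson (r = 0.936), which act in ribosome assembly and at the replication fork, and Cdca7. No gene was closer to Shmt1 than Smpdl3b, at r = 0.664.

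The promoters of 3 of the enzymes are shown because Mthfd1, and Tyms in vector cells, fell on uncoated plates while Shmt1 was not called. Each window runs from 250 bases before to 50 after the annotated start (RefSeq, GRCm38.p6), 5′ to 3′ on the strand of the gene. Capitals mark matches on either strand to letters of 4 motifs. The letters for E2F were TTCCCGC with its variants TTGGCGC as well as TTCGCGC and also TTGCCGC. Those for the CCAAT box were CCAAT, those for the E-box CACGTG, and those for HNF4A were CAAAGTCCA or else CAAAGGTCA. The matches shown do not overlap.
Mthfd1 promoter, chr12:76254982-76255281, plus strand: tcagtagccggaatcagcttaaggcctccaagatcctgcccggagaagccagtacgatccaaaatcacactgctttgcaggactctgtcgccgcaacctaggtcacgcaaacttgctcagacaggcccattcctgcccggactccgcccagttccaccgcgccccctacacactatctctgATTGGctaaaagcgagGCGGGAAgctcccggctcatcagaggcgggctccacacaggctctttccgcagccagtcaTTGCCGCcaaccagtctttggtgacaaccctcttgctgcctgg
Tyms promoter, chr5:30073576-30073875, minus strand: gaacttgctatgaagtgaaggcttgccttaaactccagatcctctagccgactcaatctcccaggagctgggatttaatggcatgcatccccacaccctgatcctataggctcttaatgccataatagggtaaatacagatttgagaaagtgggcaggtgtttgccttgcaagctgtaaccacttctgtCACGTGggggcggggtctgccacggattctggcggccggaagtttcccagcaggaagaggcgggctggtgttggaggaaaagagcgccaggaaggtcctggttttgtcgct
Shmt1 promoter, chr11:60811216-60811515, minus strand: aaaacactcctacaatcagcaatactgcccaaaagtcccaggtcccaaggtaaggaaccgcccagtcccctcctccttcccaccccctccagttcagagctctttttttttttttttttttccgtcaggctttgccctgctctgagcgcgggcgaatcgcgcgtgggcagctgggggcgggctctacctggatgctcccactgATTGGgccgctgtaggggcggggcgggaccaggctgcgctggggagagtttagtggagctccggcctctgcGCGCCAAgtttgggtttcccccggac
Mthfd1 holds E2F letters at -53 and 8 from the start and a CCAAT box at -69. Tyms holds an E-box at -61. Shmt1 holds E2F letters at 25 and a CCAAT box at -47, so both kinds of letters occur in Mthfd1 and in Shmt1. Of 32851 windows of the same length, 9.57% hold the E2F letters, 37.4% a CCAAT box, 7.15% the E-box and 0.95% the HNF4A letters. Both windows of Slc19a1 hold none of these letters. A match is a description and not a bound site.

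The other genes of the pathway came from lists of folate uptake and retention, the cytosolic and mitochondrial folate cycles, the methionine cycle with transsulfuration, and serine synthesis, of which 28 genes beside the 5 described were measured. Of these 28, 3 rose and 10 fell on uncoated plates in R132C cells, with a median log2 difference of -0.24, against -0.03 over all 12393 genes. In vector cells 3 rose and 11 fell, with a median of -0.15 against -0.02 over all genes. Over all genes 13.6% rose and 12.3% fell in R132C cells and 15.1% rose and 14.2% fell in vector cells, so the share of the 28 that rose was no higher than that of all genes. With the 5 genes included, Folr1 among them though its response was known, 16 of 33 were called in R132C cells, and 10 without R132C uncoated replicate 2. In vector cells 18 of 33 were called, and 13 without vector collagen replicate 1.

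Among genes of folate uptake and retention, Ggh, which removes the glutamate tail that holds folate in the cell, rose by 1.22 in R132C cells (SE 0.11, limma adjusted p = 2.83e-05) and by 0.88 in vector cells (SE 0.11, adjusted p = 6.36e-05). Fpgs, which adds that tail, fell by 0.58 in R132C cells (SE 0.12, adjusted p = 0.00262) and by 0.66 in vector cells (SE 0.12, adjusted p = 0.000787). Ggh stood at 11.31 and 11.50 in R132C cells and 11.23 and 11.43 in vector cells on uncoated plates, above all 10 collagen arrays (9.98 to 10.56). Slc46a1, the proton-coupled folate transporter, rose in vector cells (0.74, adjusted p = 0.00374), though not as a call without vector collagen replicate 1 (0.54, adjusted p = 0.059), and its difference in R132C cells was 0.40 (adjusted p = 0.0927). Of the 4 genes of this list measured beside Folr1 and Slc19a1, 1 rose and 1 fell in R132C cells, and 2 rose and 1 fell in vector cells.

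In the cytosolic cycle, Gart, which takes formyl-tetrahydrofolate into purines, fell by 0.70 in R132C cells (SE 0.14, adjusted p = 0.00288) and by 0.87 in vector cells (SE 0.14, adjusted p = 0.000488). Its levels were 10.32 and 10.14 in R132C cells on uncoated plates, against 11.05 and 10.82 in R132C cells on collagen. The 6 measured genes of this list include Shmt1, Mthfd1 and Tyms. Of the 6, 2 fell in R132C cells (Mthfd1 and Gart) and 3 in vector cells (Mthfd1, Tyms and Gart), and none rose. Gart was thus the only gene called beside those described above. Over all genes 12.3% fell in R132C cells and 14.2% in vector cells.

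In the mitochondrial cycle, Mthfd2, its methylene-tetrahydrofolate dehydrogenase, fell in both kinds of cell, with a difference of -1.97 in R132C cells (SE 0.41, 3.91-fold, adjusted p = 0.00331) and -1.93 in vector cells (SE 0.41, 3.81-fold, adjusted p = 0.00291). Its levels on uncoated plates were 9.21 and 8.71 in R132C cells and 8.68 and 8.72 in vector cells, below all collagen arrays (10.15 to 11.59), on which replicates differed by up to 1.36. Shmt2, the mitochondrial counterpart of Shmt1, fell by 1.07 in R132C cells (SE 0.27, adjusted p = 0.0105) and by 1.31 in vector cells (SE 0.27, adjusted p = 0.00247). Gcsh of the glycine cleavage system fell by 0.59 in R132C cells and by 0.36 in vector cells, and Gldc of the same system by 0.96 in vector cells. In R132C cells the Gldc difference was -0.49, not called in the main fit. It was called with dim genes left out, median centring, array weights, the replicate block and only the arrays compared. Sardh, the sarcosine dehydrogenase, rose by 0.60 in R132C cells. Of 7 measured genes, 1 rose and 3 fell in R132C cells, and 4 fell in vector cells.

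All 3 genes of serine synthesis, which supplies the carbon for Shmt1 and Shmt2, fell. The differences in R132C cells were -1.54 for Psph, -0.98 for Psat1 and -0.44 for Phgdh, and in vector cells -1.62, -1.27 and -0.74 for the same genes. In the methionine list of 11 measured genes, 1 rose and 2 fell in each kind of cell, near the shares over all genes. Ahcy, which hydrolyses S-adenosylhomocysteine, fell by 0.72 in R132C cells and by 0.65 in vector cells. Tcn2, the carrier of vitamin B12, rose by 1.63 in R132C cells (SE 0.24) and by 2.01 in vector cells (SE 0.24). Mmachc, which processes vitamin B12, fell in R132C cells (-0.39), and in vector cells its difference was -0.32 (adjusted p = 0.0802), a call with cyclic loess alone. Cth, the cystathionine lyase, fell in vector cells (-2.58, SE 0.70), and without vector collagen replicate 2 the difference was -1.59. Its difference in R132C cells was -1.90 (SE 0.70, adjusted p = 0.0643), which was called with array weights (adjusted p = 0.0459), the replicate block (adjusted p = 0.00462) and only the arrays compared (adjusted p = 0.000433).

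Single arrays decided several of these pathway calls. Without R132C uncoated replicate 2 the limma adjusted p in R132C cells was 0.0927 for Shmt2, 0.118 for Psph, 0.176 for Phgdh, 0.158 for Sardh and 0.301 for Mmachc. Without R132C collagen replicate 2 it was 0.0692 for Shmt2, 0.15 for Psph, 0.0992 for Phgdh, 0.0586 for Sardh and 0.122 for Mmachc. Without R132C collagen replicate 1 it was 0.102 for Phgdh, 0.0693 for Sardh and 0.153 for Mmachc, and without R132C uncoated replicate 1 it was 0.0547 for Psph. In vector cells it was 0.138 for Psph and 0.139 for Cth without vector collagen replicate 2, and 0.0997 for Gcsh without vector collagen replicate 1. Without vector uncoated replicate 1 it was 0.0654 for Psph, 0.0929 for Cth and 0.0525 for Gcsh, and without vector uncoated replicate 2 it was 0.0629 for Psph. Mthfd2, Psat1, Gart, Ggh, Fpgs, Ahcy and Tcn2 were called in both kinds of cell with any 1 array left out.

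**Figure D4:**
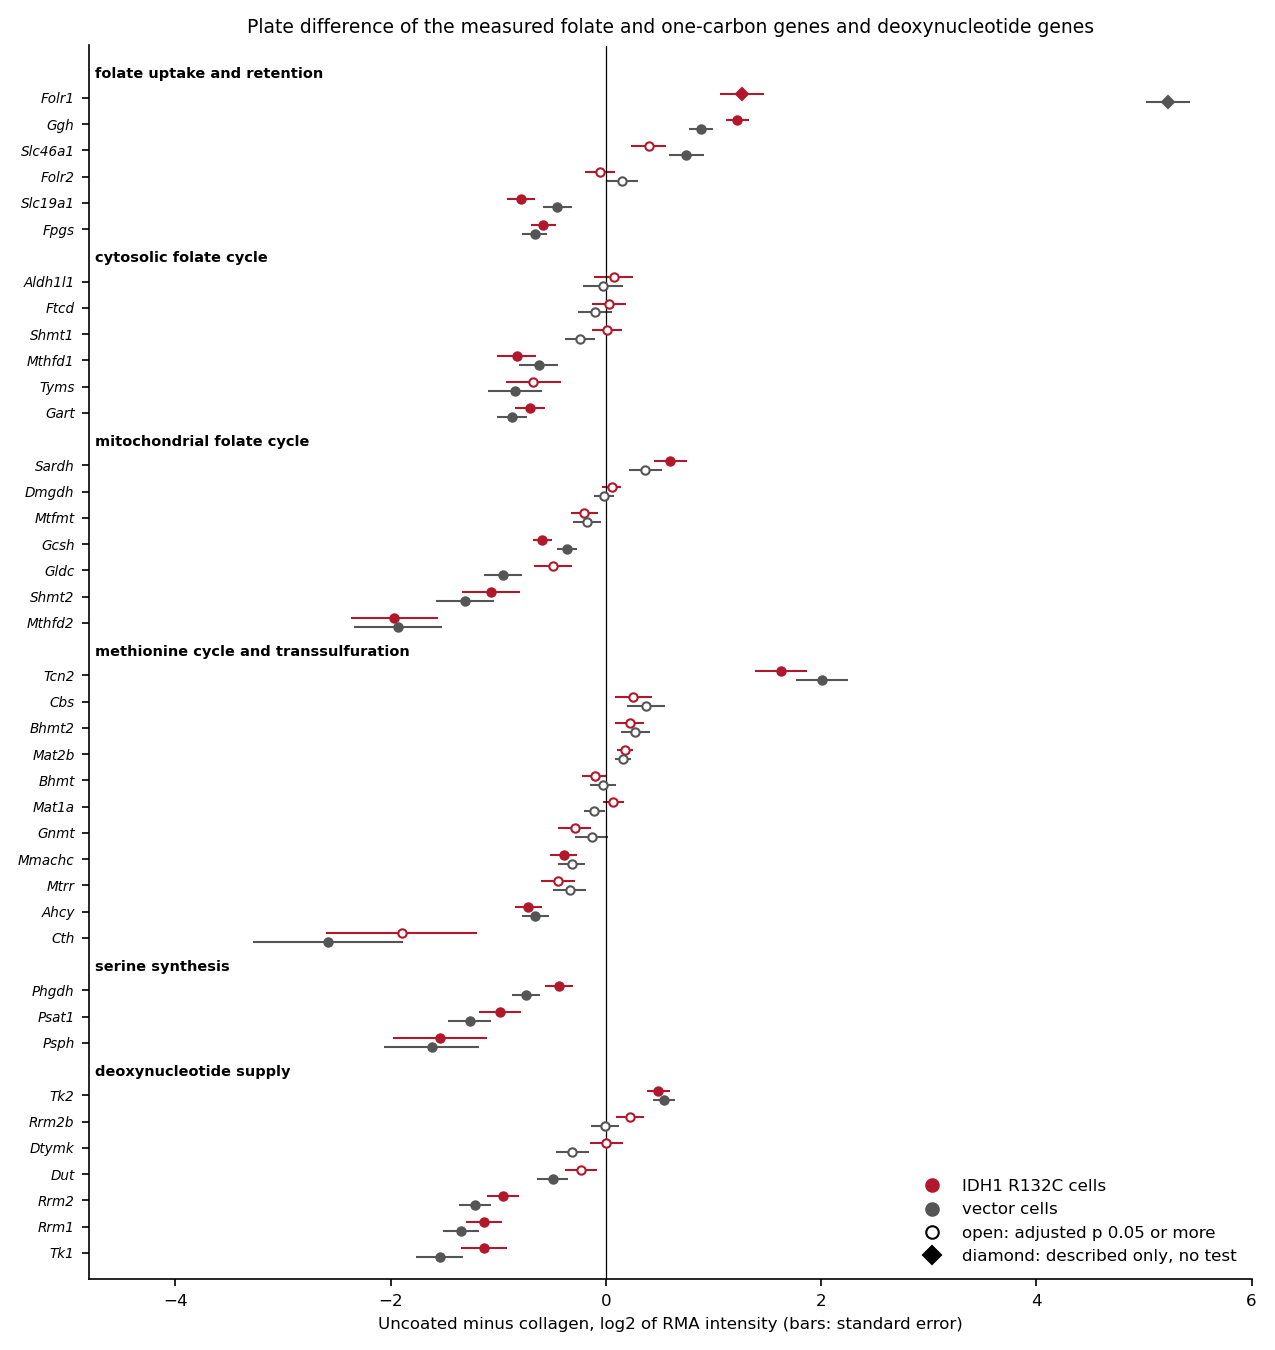
Plate difference, uncoated minus collagen, on the log2 scale for every measured gene of 6 lists (points, bars are standard errors), with IDH1 R132C cells in red above vector cells in grey. Open points had an adjusted p of 0.05 or more, and the diamonds of Folr1 carry no test; Folr1 in vector cells lies at 5.22, and the lowest points are Cth in vector cells, at -2.58, and Mthfd2, at -1.97 in R132C cells and -1.93 in vector cells.

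In the list of deoxynucleotide supply, 1 of 7 measured genes rose and 3 fell in R132C cells, and 1 rose and 4 fell in vector cells, beside 12.3% of all genes that fell in R132C cells and 14.2% in vector cells. Tk1, the thymidine kinase that makes thymidylate by salvage, fell by 1.13 in R132C cells and by 1.54 in vector cells. The ribonucleotide reductase subunit Rrm1 fell by 1.13 in R132C cells and by 1.35 in vector cells, and the subunit Rrm2 by 0.95 and 1.21 in these cells. Tk2, the mitochondrial thymidine kinase, rose by 0.49 in R132C cells and by 0.54 in vector cells, the first not called without R132C uncoated replicate 2 (adjusted p = 0.0538). Of 15 S phase and proliferation markers, 13 fell in R132C cells and 14 in vector cells, against the same 12.3% and 14.2% of all genes. The count in R132C cells was 3 without R132C collagen replicate 1 or R132C uncoated replicate 2, and 8 without R132C collagen replicate 2.

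The summed intensity of the 15 proliferation markers was 33211 and 27700.0 in R132C cells and 20209 and 23777 in vector cells on uncoated plates, against 47421 and 45789 in R132C cells and 46318 and 34803 in vector cells on collagen. The lower vector collagen array, replicate 2, is also the one with the lower Slc19a1, Tyms, Mthfd1 and Shmt1. The lower vector uncoated array, replicate 1, had the lower value on the set of Tyms alone (3.82 against 4.24, both near background). On the shared Tyms set the order was the other way (9.56 against 9.48). That array also had the higher Slc19a1 (8.80 against 8.65) and Mthfd1 (10.41 against 10.19). The part of proliferation in the falls of Slc19a1, Tyms and Mthfd1 was not tested. On uncoated plates, Mki67 (0.86, adjusted p = 0.0309) and Top2a (0.82, adjusted p = 0.0175) were higher in R132C cells than in vector cells. Neither was called without vector uncoated replicate 1 (0.61 and 0.62 for these genes) or without R132C uncoated replicate 1 (0.73 and 0.65).

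On collagen the IDH forms made no called difference to any of the 5 genes. Against wild-type IDH1, R132C cells differed by 0.28 for Slc19a1 (95% interval -0.00 to 0.57, adjusted p = 0.665), 0.33 for Mthfd1 (-0.06 to 0.72, adjusted p = 0.733), 0.14 for Tyms (-0.41 to 0.69), 0.10 for Folr1 (-0.34 to 0.54) and 0.03 for Shmt1 (-0.27 to 0.33). Against wild-type IDH2, R172K cells differed by 0.11 for Slc19a1 (-0.18 to 0.39), 0.21 for Mthfd1 (-0.18 to 0.60), -0.01 for Tyms (-0.56 to 0.54), -0.02 for Folr1 (-0.46 to 0.42) and -0.15 for Shmt1 (-0.45 to 0.16). On the dimmest probe set of Shmt1 the R172K difference was -0.51 (SE 0.14, adjusted p = 0.125). Over all genes, 0.0484% were called for R132C against wild-type IDH1 and 1.73% for R172K against wild-type IDH2. The highest Slc19a1 and Mthfd1 means on collagen were those of R132C cells, 9.46 ± 0.12 and 11.22 ± 0.17 (SD, n = 2). For Slc19a1 the R132C arrays (9.38 and 9.55) overlapped those of R172K cells (9.23 and 9.39). They lay above all collagen arrays of the wild-type forms and vector, which reached 9.34. For Mthfd1 the R132C range overlapped R172K, wild-type IDH2 and vector cells and lay above wild-type IDH1.

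Against vector cells on collagen, R132C cells differed by 0.29 for Slc19a1, 0.30 for Mthfd1, 0.07 for Shmt1, 0.01 for Tyms and 0.02 for Folr1. R172K cells differed by 0.13, 0.22, -0.25, 0.09 and 0.05 for the same genes in that order, and the wild-type forms by at most 0.13 in size. These 4 comparisons share the vector arrays. By limma 0.0% of genes were called for R132C, 4.27% for R172K, 0.0% for wild-type IDH1 and 0.0% for wild-type IDH2, with 936, 2563, 128 and 116 genes at an unadjusted p under 0.05. Array weights called 10 genes and the replicate block 33 for R132C. Of the cell markers, Hnf4a was lower in R172K cells than in wild-type IDH2 cells by 0.66, Epcam by 0.94, Krt18 by 0.26 and the monocyte marker Cd14 by 0.75, and Cubn was higher by 0.62. Among the 28 other pathway genes, Ggh alone was called, lower in R172K cells than in vector cells by 0.46 (SE 0.11, adjusted p = 0.0347).

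**Figure D5:**
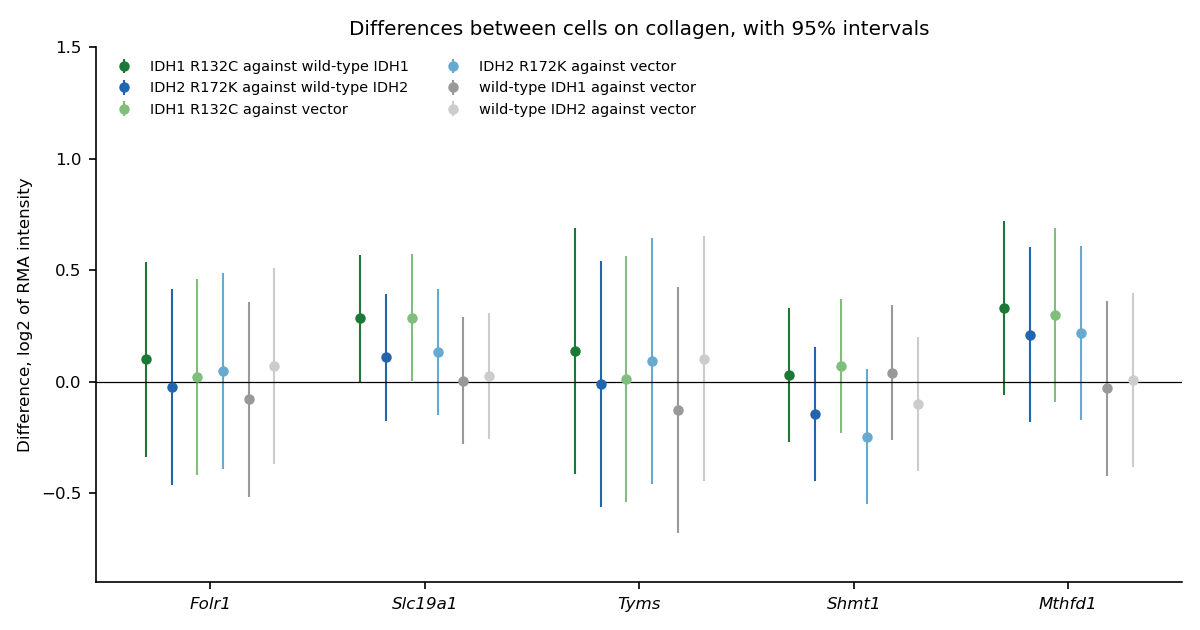
Log2 difference of the 5 genes between kinds of cell on collagen (points) with 95% intervals (bars), for 6 comparisons in different colours. All points lie between -0.25 and 0.33, and the intervals reach or nearly reach 0.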

How the data were processed

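RNA of 14 hepatoblast cultures was read on Affymetrix mouse expression arrays. The deposited intensity of each probe set had been summarised with RMA per the submitters' processing notes, without a version. These deposited values are on a linear scale, and their log2 was taken here.

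Of 22690 probe sets, 64 were controls, 20380 carried 1 gene symbol, 691 several and 1555 had no entry in the platform table. A gene took its value from the brightest probe set, by mean over all arrays, among those of that symbol alone, which gave 12393 genes. In R 4.3.3, limma 3.58.1 estimated the 7 group means (functions lmFit and eBayes, trend on; 7 residual and 5.67 prior degrees of freedom) for 10 comparisons. A gene was called at a Benjamini-Hochberg value under 0.05 across the whole table. Intervals of 95% come from that fit. Its calls were tried on simulated data with independent noise, and the coverage of the intervals was not tested.

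The 5 genes, the lists and the motifs were chosen with earlier results of these data known. Named beside the 5 were, per list and comparison, up to 4 called genes with the largest change, the 3 most correlated genes, and called markers. Markers named as near background or for their level were chosen after their values were seen. Listed genes without a probe set of their own symbol are not analysed here. RefSeq promoter windows (GRCm38.p6) were at hand for 4 of the 5.

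Replicates are separate cultures per the series text. Alternatives covered the other probe sets of a gene or their mean, a filter on dim genes (30th percentile), cyclic loess, median centring, no trend, array weights, the replicate block, only the arrays compared, and each array left out. The shared Tyms probe set was added after seeing the data.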

Additional observations from a re-analysis of the deposited data

Results flagged for a closer look

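The plate difference of Folr1 was smaller in IDH1 R132C cells than in vector cells, by -3.96 on the log2 scale (SE 0.29), with all 4 uncoated arrays above all 10 collagen arrays. The gene had been picked with this difference known, so no p is given. The R132C arrays on uncoated plates lay at 5.69 and 6.33 and the vector arrays at 10.11 and 9.78.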

How the results depend on the processing

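Among the folate genes chosen by name and the genes of the pathway, deoxynucleotide and proliferation lists, no called direction turned in any alternative run. The calls of cell markers, and the call of Ggh on collagen, were not rerun, so their dependence on the processing was not tested. A normexp background correction needs probe signals and was not run. Where calls or counts changed, the cause was not tested. With probe sets averaged per gene, the plate difference in R132C cells was -0.42 for Tyms (called), and in vector cells it was -0.33 for Slc19a1 and -0.37 for Tyms (neither called). Single probe sets that ended a call gave -0.41 for Mthfd1 and -0.18 for Slc19a1 in R132C cells, and -0.39 and -0.14 for Slc19a1 and -0.082 and -0.19 for Tyms in vector cells. The shared Tyms set gave -0.57 in R132C cells. Tyms in R132C cells, at -0.68, became a call with array weights, with the replicate block and with only the arrays compared. With only the arrays compared, Slc19a1 (-0.45) and Tyms (-0.84) in vector cells were not called.

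Genes called for the difference between plate differences were 31, and 11 with dim genes left out, 55 with array weights and 54 with the replicate block. For R132C against vector on uncoated plates the 296 became 505 with the block and 140 with only the arrays compared. The folate and one-carbon count there was 1, which is Folr1 itself and supports nothing, and became 3 and 2, and the proliferation count of 2 became 6 and 0, and 1 with mean probe sets. For R132C against wild-type IDH1 the 6 became 0 with mean probe sets, cyclic loess or every probe set, 3 with median centring, 39 with array weights and 49 with the block. For R172K against wild-type IDH2 the 215 became 9 with array weights, 480 with the block and 41 with only the arrays compared, and against vector the 529 became 40, 904 and 45. For R132C against vector on collagen the 0 became 10 with array weights and 33 with the block. With every probe set tested, 5244 were called in R132C cells and 5848 in vector cells between plates. Same-numbered arrays deviated together at r = -0.04 to 0.49 over 21 pairs of groups, with a median of 0.16 and 13 of them above 0.1. These values do not settle whether the numbers pair the cultures. The main fit left them unpaired, and the replicate block fitted a term for the number.

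Leaving out 1 array at a time, the plate difference ran from -0.95 to -0.71 for Mthfd1 in R132C cells. In vector cells it ran from -0.90 to -0.35 for Mthfd1, -0.59 to -0.30 for Slc19a1 and -1.25 to -0.44 for Tyms. The Folr1 difference between plate differences ran from -4.27 to -3.64. Genes called between plates ran from 1660 to 2527 in R132C cells and 2293 to 3169 in vector cells, and those for the difference between plate differences from 19 to 79. On uncoated plates R132C against vector gave 71 to 309 genes and 0 to 3 proliferation markers. R132C against wild-type IDH1 gave 0, R132C against vector on collagen 0 to 14, R172K against wild-type IDH2 14 to 2332 and R172K against vector 70 to 2596. Folate and one-carbon calls ran from 10 to 16 between plates in R132C cells and 0 to 2 for R172K against wild-type IDH2, and proliferation calls between plates in R132C cells from 3 to 13.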
